A study of Homo sapiens with 4 samples.

Results

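The genes described here encode enzymes that build purine and pyrimidine nucleotides from small precursors. They were taken by symbol from a given list, and each of the 10 matched a single Ensembl identifier among the 60617 gene entries of the count table. All 10 passed the filter on low counts. RNA-seq libraries came from SKNMC, an established Ewing sarcoma cell line, after 24 h with 1 µM CBL0137 (n = 2) or with the DMSO vehicle (n = 2). CBL0137, of the curaxin class, intercalates into DNA and is known to hold the histone chaperone FACT bound to chromatin. The series concerns FACT inhibition in Ewing sarcoma, and the comparison is of transcript levels with the compound and with its vehicle. Both groups were of the same line, and the labels name no allele or second agent. Whether the libraries within each group were grown as separate cultures is not said in the labels, so the p-values cover only the variation among these samples, and this may be technical.

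Purine synthesis assembles the ring on phosphoribosyl pyrophosphate (PRPP) and ends at inosine monophosphate (IMP), from which separate branches lead to AMP and GMP. Pyrimidine synthesis makes the ring first, attaches the ribose later to give UMP, and converts UTP to CTP in its last reaction. Dividing cells draw on both routes for RNA and DNA, and tumour cells are known to depend on them. Several of these genes are known to respond to MYC, and genes for the one-carbon units built into the purine ring are known to respond to ATF4.

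Gene-assigned reads came to 20767817 and 21061892 in the CBL0137 libraries and 20086664 and 19625517 in the DMSO libraries. The 10 genes held between 148 reads (ADSL) and 11271 reads (PAICS) per library. All 6 Ewing sarcoma markers were detected, with a summed level of 805 and 850 CPM (counts scaled to TMM-adjusted library size) with CBL0137, against 1038 and 1040 CPM with DMSO. Of these, CD99 (mean 179 CPM with CBL0137 against 288 CPM with DMSO) and NR0B1 (67.4 against 107 CPM) were called lower. STEAP1 (120 against 141 CPM), EWSR1 (352 against 399 CPM), FLI1 (70.9 against 69.8 CPM) and NKX2-2 (38.6 against 33.0 CPM) were not called. Of 5 fibroblast markers all 5 reached 1 CPM, with sums of 936 and 909 CPM with CBL0137, against 690 and 682 CPM with DMSO. They did not move together. COL1A1 was called higher, at a mean of 456 CPM with CBL0137 against 123 CPM with DMSO, and LUM lower, at 20.3 CPM against 35.2 CPM. COL3A1 (322 CPM with CBL0137 against 360.0 CPM with DMSO), DCN (109 against 157 CPM) and PDGFRB (15.6 against 11.4 CPM) were not called. Of 5 immune markers only PTPRC reached 1 CPM, and the sums were 108 and 125 CPM with CBL0137, against 163 and 163 CPM with DMSO. Of 5 epithelial markers EPCAM and KRT19 reached 1 CPM, and both were called higher. The epithelial sums were 9.0 and 10.2 CPM with CBL0137, against 2.96 and 3.11 CPM with DMSO. CDH1 and KRT5 had 0 reads in both DMSO libraries, and CD3E had 1 read over the 4 libraries together. The part of these markers in the results below was not tested.

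With CBL0137, 7 of the 10 de novo genes fell, namely GART, PFAS, PAICS, ATIC, IMPDH2, CAD and CTPS1. PPAT, ADSL and UMPS were not called. None of the 10 rose in edgeR's test, 0 with the fold limit and 0 at an unadjusted p under 0.05 without it, and DESeq2 also called 0 higher. A call required an adjusted p under 0.05 in edgeR's quasi-likelihood test, with Benjamini-Hochberg adjustment over all 17374 genes tested, and a fold above 1.5. The same rule called 15.1% of all tested genes lower and 18.2% higher, or 33.4% in either direction. Among protein-coding genes with a mean CPM at or above that of ADSL, the lowest of the 10 in counts, 16.3% were called lower and 10.8% higher. This limit is low, since the counts of ADSL are few beside its FPKM, as described below. ADSL had a mean of 7.18 CPM with CBL0137 and 9.50 CPM with DMSO. PFAS, the next lowest in counts and the lowest in FPKM, had 39.4 and 71.5 CPM. The median log2 fold change of the 10 was -0.72, beside 0.01 over all tested genes. An adjusted p under 0.05 in the lower direction was reached by 9 of the 10, and by 30.9% of all tested genes. In TMM-scaled CPM, both CBL0137 libraries lay below both DMSO libraries for each of the 10, as they did for 39.2% of all tested genes. For UMPS this order depends on the scaling, since its log2 fold change was 0.10 with library size alone.

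Summed over the 10 genes, the level was 1342 and 1374 CPM with CBL0137, against 2206 and 2203 CPM with DMSO. This was 0.142% and 0.145% of reads assigned to genes with CBL0137, against 0.208% and 0.209% with DMSO. In bulk RNA, fewer cells that express a gene and less of its RNA per cell cannot be told apart, and a change in total RNA per cell does not show.

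**Figure D1:**
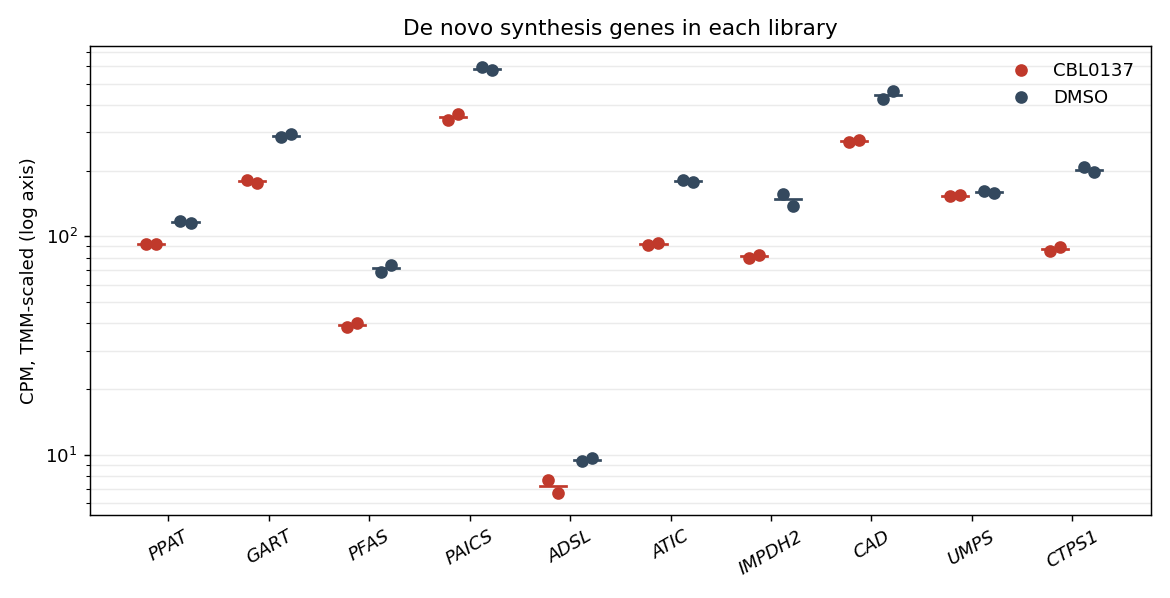
Level of each of the 10 genes in each library, in CPM scaled by TMM factors on a log axis, in pathway order. Points are libraries, with CBL0137 left of DMSO, and short lines are group means (n = 2). The CBL0137 points lie below the DMSO points for every gene, by the least for UMPS.

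The route to IMP begins with PPAT, the amidotransferase of the committed step (ENSG00000128059, GRCh37 chromosome 4, 57259528 to 57301781, minus strand). PPAT had 92.2 and 92.5 CPM with CBL0137, against 118 and 116 CPM with DMSO. Its log2 fold change was -0.34 (SE 0.06, edgeR adjusted p = 1.88e-06), under the fold limit, so it was not called although the groups did not overlap. PAICS, which carries the AIR carboxylase and SAICAR synthetase activities (ENSG00000128050, chromosome 4, 57301907 to 57330744, plus strand), held the most reads of the 10. It had 341 and 363 CPM with CBL0137, against 595 and 578 CPM with DMSO. PAICS fell by 0.74 on the log2 scale (SE 0.05, edgeR adjusted p = 8.61e-16), with a wide gap between the groups.

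PPAT and PAICS are transcribed away from each other, and their annotated starts on chromosome 4 are separated by 125 bases that lie in no exon of either gene. This stretch is shown because both transcripts start from its ends. It is read on the plus strand, towards PAICS, from RefSeq promoter sequence matched exactly to GRCh37. Capitals mark GC boxes, the letters GGGCGG on either strand, the site known for SP-family factors.
PPAT-PAICS, chr4:57301782-57301906: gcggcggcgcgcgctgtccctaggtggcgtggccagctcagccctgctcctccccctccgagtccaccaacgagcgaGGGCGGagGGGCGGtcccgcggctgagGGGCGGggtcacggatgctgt
It holds 3 GC boxes. In counts, PAICS stood at 3.70 and 3.93 times PPAT with CBL0137, against 5.03 and 5.01 times with DMSO, so the pair sharing this stretch did not change in equal proportion. The mean ratio was 3.81 ± 0.162 with CBL0137 and 5.02 ± 0.0191 with DMSO (SD, n = 2). With 2 samples against 2, an exact two-sided permutation test of a single ratio cannot give a p below 0.333, so it carries no p of its own. The ratio of deposited FPKM values (fragments per kilobase of gene, scaled for depth) also separated the groups, at 2.18 and 2.46 with CBL0137 against 2.98 and 2.86 with DMSO.

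GART carries 3 activities of the route, GAR synthetase, GAR formyltransferase and AIR synthetase (ENSG00000159131, chromosome 21, 34876238 to 34915797, minus strand). GART had 182 and 175 CPM with CBL0137, against 284 and 293 CPM with DMSO, and the groups did not overlap. It fell by 0.69 on the log2 scale (SE 0.05, edgeR adjusted p = 4.98e-15). PFAS, the FGAM synthetase, takes its nitrogen from glutamine (ENSG00000178921, chromosome 17, 8150936 to 8173809, plus strand). PFAS had 38.6 and 40.1 CPM with CBL0137, against 68.7 and 74.3 CPM with DMSO. It fell by 0.86 (SE 0.07, edgeR adjusted p = 3.70e-14).

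ATIC, the bifunctional enzyme that adds the last formyl group and closes the ring to IMP (ENSG00000138363, chromosome 2, 216176679 to 216214496, plus strand), had the lowest log2 fold change among the 6 genes of the route to IMP, although its interval overlaps that of PFAS. The order turned with the GC and length trend removed, with PFAS at -1.14 and ATIC at -0.91. ATIC had 91.2 and 93.2 CPM with CBL0137, against 180 and 177 CPM with DMSO. It fell by 0.95 on the log2 scale (SE 0.06, edgeR adjusted p = 9.74e-19), a fold of 0.516 with a 95% interval of 0.478 to 0.558. Replicates differed far less than the groups did.

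ADSL, adenylosuccinate lyase (ENSG00000239900, chromosome 22, 40742465 to 40786467, plus strand), acts on the route to IMP and again in the AMP branch. It had only 169 and 148 reads with CBL0137, against 177 and 180 with DMSO, or 7.68 and 6.67 CPM against 9.34 and 9.65 CPM. The log2 fold change was -0.40 (SE 0.15, edgeR adjusted p = 0.0202), under the fold limit, and its interval of -0.71 to -0.10 includes changes on both sides of that limit. The count and the deposited FPKM of ADSL describe different read sets. In the DMSO libraries its CPM per exonic kilobase was 0.0361 of its FPKM, whereas for the other 9 genes this ratio lay between 0.374 and 1.22. An unnamed gene on the same strand shares 11.1% of the annotated exonic bases of ADSL, and its part in this gap was not tested. In FPKM, ADSL had 17.4 and 13.5 with CBL0137, against 22.1 and 21.3 with DMSO, and its difference on the log2(FPKM + 1) scale was -0.48 (limma adjusted p = 0.0431), again under the fold limit.

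IMPDH2, the IMP dehydrogenase isoform known to be raised in proliferating cells, opens the GMP branch (ENSG00000178035, chromosome 3, 49061758 to 49066880, minus strand). IMPDH2 had 79.8 and 82.3 CPM with CBL0137, against 157 and 138 CPM with DMSO. It fell by 0.86 on the log2 scale (SE 0.06, edgeR adjusted p = 3.69e-16). The DMSO libraries differed more from each other here than for most of the 10, yet both stayed above both CBL0137 libraries. Its paralog IMPDH1, which catalyses the same reaction, had 109 and 117 CPM with CBL0137, against 110 and 103 CPM with DMSO, with 0.09 on the log2 scale (SE 0.06, edgeR adjusted p = 0.181). The sign of IMPDH1 turned, to -0.31, once the trend with GC content and length was removed. Per gene length, IMPDH2 stood at 1.59 and 1.03 times IMPDH1 in FPKM with CBL0137, against 3.05 and 2.21 times with DMSO. In counts not scaled for length, it stood at 0.733 and 0.703 times IMPDH1 with CBL0137, against 1.433 and 1.345 times with DMSO. With CBL0137, which gene of the pair was higher thus depended on the measure. The annotated exonic length is 5123 bases for IMPDH2 and 3396 for IMPDH1, so scaling the counts by length would lower the ratio further. In both groups counts and FPKM thus differed by more than this scaling. In the DMSO libraries the CPM of IMPDH2 per exonic kilobase was 0.374 of its FPKM, and the cause was not tested. The sum of both isoform genes was 71.3 and 72.7 FPKM with CBL0137, against 105 and 109 FPKM with DMSO. An unnamed gene on the opposite strand shares 2.58% of the exonic bases of IMPDH2, as another shares 2.22% of those of PPAT.

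The pyrimidine route opens with CAD, a single protein that carries the first activities of the pathway, from carbamoyl phosphate to dihydroorotate (ENSG00000084774, chromosome 2, 27440237 to 27466811, plus strand). CAD had 271 and 276 CPM with CBL0137, against 425 and 461 CPM with DMSO. It fell by 0.70 on the log2 scale (SE 0.05, edgeR adjusted p = 6.92e-15), and the groups were well apart. DHODH, the mitochondrial enzyme of the next reaction, had 9.81 and 10.5 CPM with CBL0137, against 13.5 and 12.9 CPM with DMSO. At -0.38 on the log2 scale (SE 0.13, edgeR adjusted p = 0.00953), it stayed under the fold limit.

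UMPS attaches the ribose and forms UMP (ENSG00000114491, chromosome 3, 124449280 to 124468120, plus strand). UMPS had 153 and 155 CPM with CBL0137, against 161 and 159 CPM with DMSO. Its log2 fold change was -0.06 (SE 0.05, edgeR adjusted p = 0.371), and the 95% interval of the fold ran from 0.892 to 1.04. The interval does not reach the fold limit in either direction, and the sign turned to 0.012 with upper-quartile factors and to 0.10 with library size alone. UMPS and CAD, which act in the same route, thus stood in different proportions. In counts not scaled for length, UMPS was 0.565 and 0.560 of CAD in CPM with CBL0137, against 0.379 and 0.344 of CAD with DMSO.

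The stretches just before the annotated starts of CAD, which fell, and of UMPS, which was not called, are shown for comparison, with GC boxes in capitals and exonic bases left out.
CAD, chr2:27440117-27440236, plus strand: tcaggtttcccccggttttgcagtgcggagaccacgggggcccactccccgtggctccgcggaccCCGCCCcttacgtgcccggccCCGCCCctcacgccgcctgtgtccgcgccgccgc
UMPS, chr3:124449179-124449279, plus strand: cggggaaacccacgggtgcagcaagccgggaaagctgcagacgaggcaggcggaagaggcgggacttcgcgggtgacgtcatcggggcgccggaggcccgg
The CAD stretch holds its GC boxes near the start, and none is in the UMPS stretch. RefSeq promoter windows, from 250 bases before to 50 after a start, were matched for 8 of the 10 genes, with 13 windows in all, since some genes have several starts and some windows overlap. GC boxes were in 8 of these 13 windows and in 45.0% of all 35116 RefSeq windows. Counted by gene, which a gene with several windows meets more easily, 7 of the 8 had a GC box in at least 1 window, all but UMPS. The share of 45.0% is by window, so it does not serve as a background for this count. PPAT, which was not called, is among the 7. The PPAT window and 1 PAICS window hold the same 3 boxes, and of the 4 in a CTPS1 window 2 share a base. The E-box CACGTG, the site known for MYC and MAX, was in 3 of the 13 windows, of ATIC, PAICS and PPAT, and in 7.26% of all windows. PAICS and PPAT share 1 E-box, since their windows overlap. The CCAAT box was in 4 of the 13 windows, of CAD and GART, and in 34.6% of all windows. The ETS letters CCGGAAG were in 1 of the 13 windows, of GART, and in 10.3% of all windows. The palindromic NRF1 motif and the letters TGATGCAA, known for ATF4, were in no window of the 8 genes, and in 1.24% and 0.866% of all windows. Each motif was searched on both strands, and a match describes letters only.

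CTPS1, the CTP synthetase of the last reaction (ENSG00000171793, chromosome 1, 41444972 to 41478237, plus strand), had the lowest log2 fold change of the 10. CTPS1 had 85.8 and 89.7 CPM with CBL0137, against 207 and 197 CPM with DMSO. It fell by 1.20 (SE 0.06, edgeR adjusted p = 7.19e-22), a fold of 0.434 with a 95% interval of 0.401 to 0.469. Of the 10 it alone was called lower with a fold above 2, a limit passed in that direction by 7.01% of all tested genes. With the GC and length trend removed, PFAS (-1.14) also passed a fold of 2, beside CTPS1 (-1.19). In counts not scaled for length, CTPS1 stood at 0.562 and 0.580 of UMPS with CBL0137, against 1.29 and 1.24 times UMPS with DMSO. Its paralog CTPS2 had 10 and 6 reads with CBL0137, against 5 and 7 with DMSO, and was below the filter. Reads of the CTP synthetase genes thus came almost entirely from CTPS1 in both groups.

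**Figure D2:**
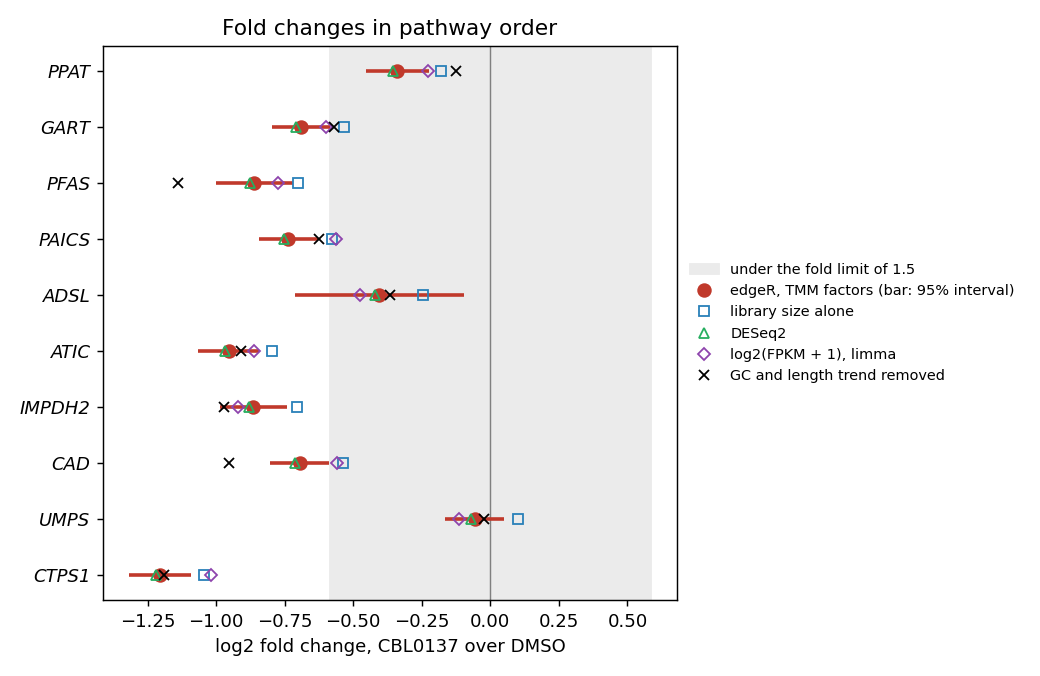
Log2 fold change of CBL0137 over DMSO for the 10 genes in pathway order, with the 95% interval of the edgeR estimate and the values under 4 other settings. The shaded band lies under the fold limit of 1.5. The points of PPAT, ADSL and UMPS lie in the band. GART, PAICS and CAD enter it with library size alone, PAICS and CAD also with log2(FPKM + 1), and GART also with the GC and length trend removed.

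GART, PAICS and CAD stayed called with DESeq2's scaling factors, with upper-quartile factors and with DESeq2 itself, but not with library size alone. With library size alone, which moved the median of all genes by 0.158, they stood at -0.53, -0.58 and -0.54, and 4 of the 10 were called lower, beside 10.8% of all tested genes called lower. With log2(FPKM + 1) and limma, GART (-0.60, adjusted p = 0.0565), PAICS (-0.56) and CAD (-0.56) were not called, and 4 of the 10 were called lower, beside 7.85% of all tested genes. With log2(FPKM + 0.1), GART was called (-0.61, limma adjusted p = 0.0473), while PAICS and CAD were not. CTPS1 was called lower in every alternative tried, and ATIC, IMPDH2 and PFAS in every one but the fold limit of 2.

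Per gene length, in deposited FPKM, the 10 genes spanned a wide range. With CBL0137 the order was PAICS (46.1 and 52.9), IMPDH2 (43.7 and 36.8), GART (45.9 and 33.2), ATIC (32.5 and 34.1), CAD (28.4 and 29.3), PPAT (21.2 and 21.5), CTPS1 (20.98 and 20.77), UMPS (18.3 and 18.2), ADSL (17.4 and 13.5) and PFAS (4.71 and 5.65). In that group IMPDH2 overlapped GART and GART overlapped ATIC, while the other neighbours were apart. With DMSO the order was IMPDH2 (79.0 and 74.9), PAICS (75.2 and 71.7), ATIC (61.7 and 60.9), GART (55.1 and 64.7), CTPS1 (45.0 and 41.7), CAD (40.8 and 45.3), PPAT (25.3 and 25.1), ADSL (22.1 and 21.3), UMPS (18.3 and 21.4) and PFAS (8.92 and 10.2). There IMPDH2 overlapped PAICS, ATIC overlapped GART, CTPS1 overlapped CAD, and ADSL overlapped UMPS. CTPS1 thus ranked 7 with CBL0137 and 5 with DMSO.

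**Figure D3:**
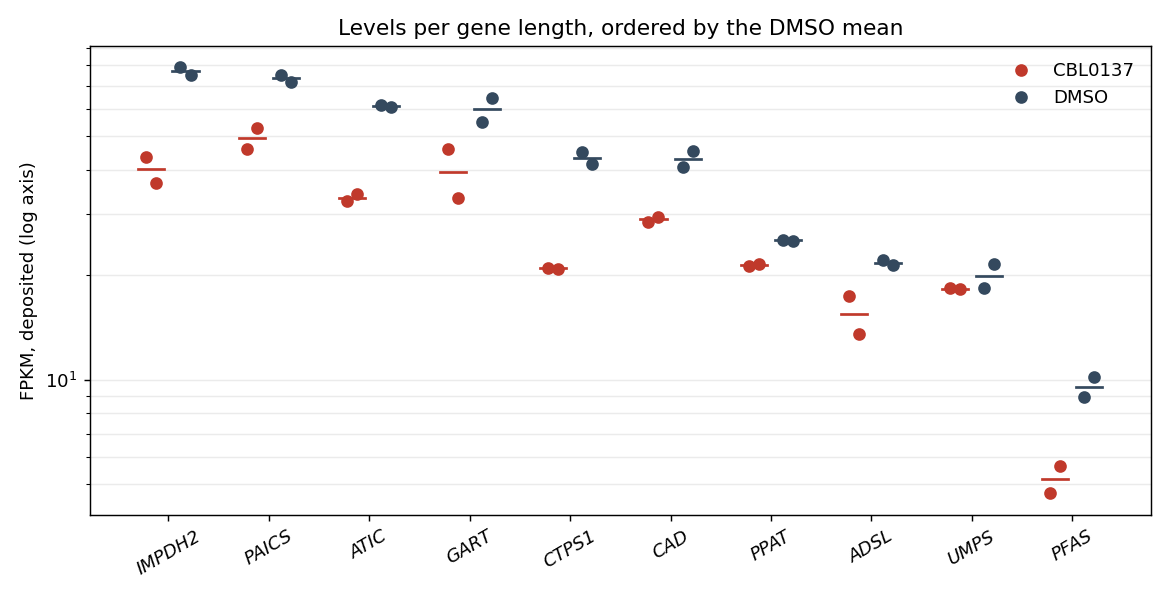
Deposited FPKM of the 10 genes in each library on a log axis, ordered by the DMSO mean, with CBL0137 left of DMSO. Points are libraries and short lines are group means (n = 2). PFAS is lowest in both groups, and UMPS has the closest group means.

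The rest of nucleotide metabolism and its supply was followed in 89 further genes, of which 78 were tested. With CBL0137 21 fell, 5 rose and 52 were uncalled, with a median of -0.28 on the log2 scale. Enzymes that provide one-carbon units for the formyl transfers of GART and ATIC had 4 of 6 lower and 0 higher. MTHFD2, a mitochondrial folate enzyme, had 87.1 and 102 CPM with CBL0137, against 488 and 478 CPM with DMSO, and fell by 2.35 on the log2 scale (SE 0.06, edgeR adjusted p = 1.10e-30). MTHFD1L, which releases formate in mitochondria, had 19.7 and 24.0 CPM with CBL0137, against 108 and 104 CPM with DMSO, and fell by 2.28 (SE 0.08). Both values lie below the lowest of the 10 de novo genes, -1.20 for CTPS1, a difference that was not tested.

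Among the other genes of the purine routes 2 of 8 fell and 1 rose. PRPS2, a PRPP synthetase, had 11.5 and 13.5 CPM with CBL0137, against 25.9 and 25.6 CPM with DMSO, and fell by 1.04 (SE 0.11). GMPS, which completes GMP, had 315 and 324 CPM with CBL0137, against 405 and 433 CPM with DMSO, a log2 fold change of -0.39 under the limit. ADSS2, which opens the AMP branch, fell by 0.60 (SE 0.07), next to the limit, and its call was lost under 9 alternatives beside the fold of 2, among them DMSO replicate 1 left out (-0.56) and CBL0137 replicate 1 left out (-0.56). Its isozyme gene ADSS1, known from muscle, was called higher on 29 reads with CBL0137 against 1 with DMSO, a ratio of 24.7 with a 95% counting interval of 4.09 to 1008. It passed the filter on low counts only through the CBL0137 libraries, with 11 and 18 reads against 1 and 0 in DMSO. Its fitted log2 value of 4.34 moved to 6.79 without DMSO replicate 1 and to 3.48 without DMSO replicate 2. ADSS1 fell below the filter without CBL0137 replicate 2 and at a CPM of at least 1 in every library, and was not called with FPKM.

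Deoxynucleotide genes had 5 of 12 tested lower and 1 higher. RRM2, a ribonucleotide reductase subunit, had 187 and 179 CPM with CBL0137, against 439 and 467 CPM with DMSO (log2 fold change -1.31, SE 0.05). SAMHD1, which hydrolyses deoxynucleoside triphosphates, had 24.99 and 24.8 CPM with CBL0137, against 6.76 and 9.12 CPM with DMSO, and rose by 1.65 (SE 0.12). Salvage genes had 3 of 10 lower and 0 higher. HPRT1, the salvage enzyme of hypoxanthine and guanine, had 33.9 and 33.0 CPM with CBL0137, against 57.3 and 59.7 CPM with DMSO, and fell by 0.81 (SE 0.07). MTAP, which recovers adenine from methylthioadenosine, fell by 1.15 (SE 0.07). Purine salvage and purine synthesis genes thus both included falls.

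Breakdown and interconversion genes had 5 of 15 tested lower and 1 higher. XDH, xanthine dehydrogenase, had 2.77 and 3.97 CPM with CBL0137, against 18.8 and 21.5 CPM with DMSO, and fell by 2.58 (SE 0.15), while the nucleotidase gene NT5C3A fell by 0.92 (SE 0.07). Nucleotide kinases had 2 of 13 lower and 2 higher, near the shares of 15.1% and 18.2% over all tested genes. NME4 fell by 0.94 (SE 0.05). NME1 fell by 1.22 (SE 0.12) on 168 and 187 reads with CBL0137, against 357 and 346 with DMSO. Its near copy NME2 held 29 and 46 reads with CBL0137, against 32 and 34 with DMSO, and was not called. With DMSO, NME1 had 18.8 and 18.6 CPM but 182 and 168 FPKM, and NME2 1.69 and 1.82 CPM but 268 and 232 FPKM. With CBL0137, NME1 had 59.8 and 64.6 FPKM and NME2 144 and 150 FPKM. In FPKM, NME2 was therefore also lower in both CBL0137 libraries, unlike in counts. As for ADSL, the counts thus held few reads beside the FPKM, and the cause was not tested. Of the other pyrimidine genes 0 of 2 tested were called in either direction, and CMPK1, the UMP and CMP kinase, was at -0.50 (SE 0.06), called lower without CBL0137 replicate 2 (-0.62). Pentose phosphate genes, which supply ribose, had 0 of 7 called in either direction at the fold limit and 3 lower and 2 higher without it. Of these, RPE was at -0.51 (SE 0.06) and TKT at 0.36 (SE 0.06). Nucleoside transporters had 0 of 5 tested called, and 1 lower and 2 higher without the fold limit. Without that limit, 5375 of all 17374 tested genes were lower and 5347 higher. SLC29A1 was at -0.31 (SE 0.06; 0.039 with log2(FPKM + 1)) and SLC29A4 at 0.35 (SE 0.07).

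**Figure D4:**
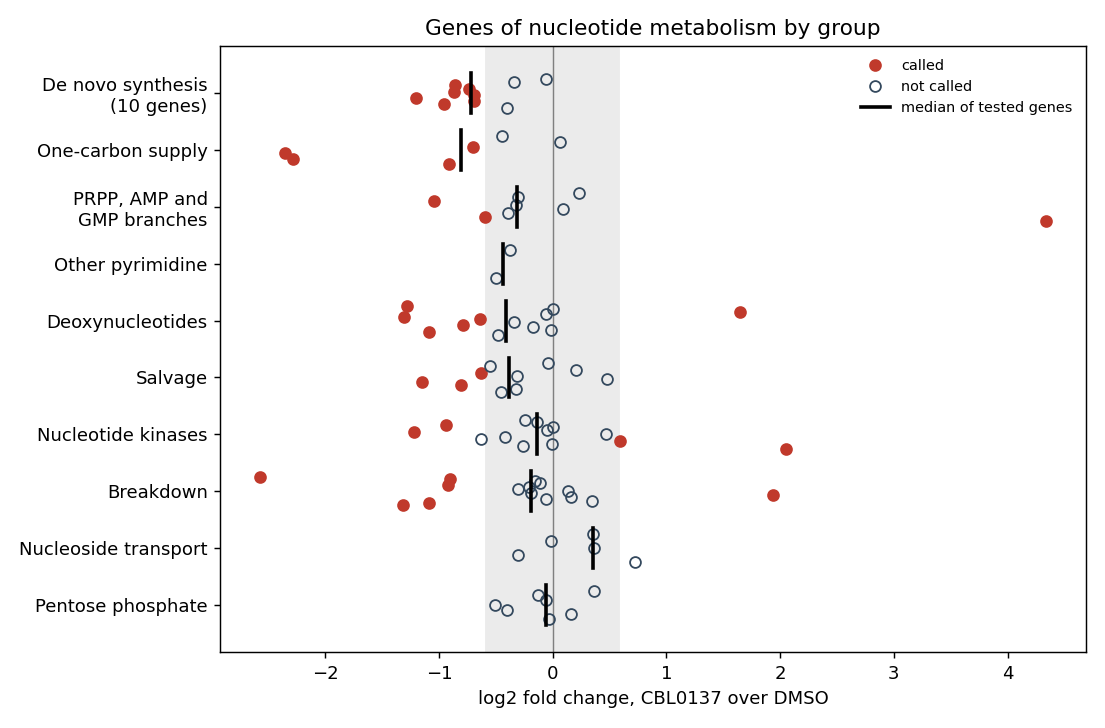
Log2 fold change of CBL0137 over DMSO for each tested gene of nucleotide metabolism, by group. Filled points are called genes, open points are not called, black bars are medians, and the band lies under the fold limit of 1.5. The 10 de novo genes lie at or below 0, and the point far right among the purine branches is ADSS1, with 1 read in DMSO.

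Of 8 genes whose proteins are known to act on these enzymes or their genes, 2 fell and 0 rose, beside 15.1% lower and 18.2% higher over all tested genes. MYC had 226 and 228 CPM with CBL0137, against 381 and 380 CPM with DMSO (log2 fold change -0.74, SE 0.05). ATF4 had 496 and 547 CPM with CBL0137, against 933 and 880 CPM with DMSO (-0.80, SE 0.05). Whether these changes bear on the 10 genes was not tested.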

How the data were processed

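RNA was measured in 4 SKNMC libraries, 2 per group, grouped and numbered from the sample titles. The deposited raw counts per gene came from HTSeq 0.11.1 after Trim Galore and a HISAT2 alignment to hg19, per the series' design text. That text also gives DESeq2 1.26.0 with the fold and adjusted p limits used here, and the submitters' processing notes name the mouse build mm10 as well. The deposited FPKM values account for gene length and depth, per the same text. They are no rescaling of the counts, since 5103 genes had FPKM above 0 but no count and 76 had counts but FPKM of 0. No source used here gives the annotation release or strand setting, so reads of overlapping genes on opposite strands cannot be told apart. The 6 entries that name no gene stayed out. Reads in no gene made up 10.3% and 10.2% of counted reads with CBL0137 and 8.53% and 8.82% with DMSO.

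Counts were tested with edgeR 4.0.16 (filterByExpr, TMM, quasi-likelihood F test) in R 4.3.3. The code recovered known changes in simulated data, drawn from the fit's own dispersion with as many rises as falls. That simulation checks the code only and does not bear on the choice of scaling. CPM use TMM effective library sizes. SE is the absolute log2 fold change over the square root of F, and 95% intervals use the fit's degrees of freedom. FPKM was tested with limma 3.58.1 and DESeq2 1.42.0 was an alternative. The added pseudocount draws FPKM differences of low genes toward 0. Replicates differed by more than sampling noise (chi-square per degree of freedom 2.68 for CBL0137 and 2.95 for DMSO). Counting intervals cover counting error only. Gene positions, names and exonic lengths came from GENCODE 44 on GRCh37, the same build as hg19, and promoter windows from RefSeq GRCh38.p14, matched letter for letter to GRCh37 for their positions.

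The 10 genes and the other lists were chosen with earlier results of these data known. The text names all 10, the 2 tested genes of smallest p in each other list, IMPDH1, CTPS2, DHODH, GMPS, ADSS1, ADSS2, MYC and ATF4. Other names were chosen after their values were seen. The alternatives were other scalings, filters, call rules and tests, FPKM, each library left out, a replicate block and removal of the trend with GC content and exonic length.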

Additional observations from a re-analysis of the deposited data

How the results depend on the processing

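The count of de novo genes called lower was 7, and it was 4 with library size alone, 4 with log2(FPKM + 1) and 1 with a fold above 2. It stayed at 7 as each library was left out in turn, and 0 were called higher in every alternative. Over all genes, 2632 were called lower and 3166 higher. These counts were 1679 and 1991 with the fold limit tested in the model, 1218 and 1988 for folds over 2, 5375 and 5347 without a fold limit, and 1363 and 1860 with log2(FPKM + 1). Of the calls, 54.6% were higher, against 68.8% with library size alone. For the other pathway genes, 21 lower and 5 higher, the counts were 42 and 14 without a fold limit, and 11 were lower for folds over 2. Higher calls there were 3 with either FPKM pseudocount, and 3 to 5 with 1 library left out. GART was also not called with the GC and length trend removed (-0.57). The sign turned for UMPS (0.012 with upper-quartile factors, 0.10 with library size alone), IMPDH1 (-0.31 with the GC and length trend removed) and SLC29A1 (0.039 with log2(FPKM + 1) and 0.041 with log2(FPKM + 0.1)). With the replicate block 7 de novo genes, 2612 genes lower and 3129 higher were called, and no call changed among the 33 tested pathway genes refitted by name. The neighbours and cell type markers were not followed by name under the alternatives. The replicate numbers share only a number: same-numbered deviations correlated at 0.0196. The low count of ADSL limits its precision. The cause of these differences was not tested.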

Other observations

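Besides the PPAT and PAICS pair, a protein-coding gene on the opposite strand starts close to GART and to PFAS, and these neighbours were looked up after the values of the 10 genes were seen. SON, whose annotated start lies 453 bases inside GART, stood at 0.29 on the log2 scale (SE 0.05, edgeR adjusted p = 6.69e-06), under the fold limit, where GART fell by 0.69. CTC1, of the telomere CST complex, starts 440 bases inside PFAS and rose by 0.84 (SE 0.10, edgeR adjusted p = 2.36e-09), where PFAS fell by 0.86. Neither GART nor PFAS shares exonic bases with another counted gene in the annotation used here. PAICS and PPAT have annotated processed pseudogenes, and none of them held more than 10 reads in a library.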
